A study of Mus musculus with 38 samples.

Results

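The JGES course without BMP4 was followed in 5 bulk RNA-seq libraries, 1 for each of days 0, 1, 3, 5 and 7, out of 38 samples in the series. They were chosen by their labels alone, as the JGES samples of the time course that received no BMP4. All 5 came from E13.5 mouse embryonic fibroblasts (MEFs) of OG2 by 129S4/SvJaeJ crosses, which carry an *Oct4*-GFP reporter. They were made from the trunk of embryos of either sex. All 5 cultures had received retroviruses for *Jdp2*, *Glis1*, *Esrrb* and *Sall4*, the JGES factors. After 2 days of infection the cells were moved at day 0 to the serum-free medium iCD3, to which mLIF, bFGF, Vitamin C, TV, the GSK3 inhibitor CHIR99021, the DOT1L inhibitor SGC0946, LSD1-HCL and the ROCK inhibitor Y27632 belong. Day 0 is therefore an infected culture, and the action of the factors and of the new medium after day 0 cannot be told apart. Another 4 libraries of the same days 1 to 7 received 10 ng/ml BMP4 in addition, and 1 scRNA-seq sample of day 7 without BMP4 was also used. Every day has 1 library, so that no difference below has a replicate check and no p-value is given.

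Fibroblasts hold their shape and their surroundings with contractile filaments and secreted matrix, and their identity rests on mesenchymal transcription factors such as PRRX1 and OSR1. In the naive pluripotent state OCT4 (gene *Pou5f1*), SOX2 and NANOG act with partners such as ESRRB, KLF2 and TFCP2L1 in a network that maintains its own expression. During reprogramming the first programme is lost, epithelial junctions form, and the second programme is gained. The question put to these libraries was the order of loss and gain across all genes. Levels are in FPKM, fragments scaled to transcript length and library size, and differences are in log2(FPKM + 1), which understates the change of low genes. A gene is said to have risen or fallen where this difference reached 1 in size, that is 2-fold. In bulk libraries fewer cells of a type and less RNA per cell cannot be told apart.

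The table held 35976 genes, of which 11126 reached 5 FPKM in at least 1 of the 5 libraries and were compared. Between 12565 genes at day 0 and 14166 at day 7 were at or above 1 FPKM. The median difference of the compared genes from day 0 was 0.04, 0.15, 0.25 and 0.18 on days 1, 3, 5 and 7, and list medians are to be read against these shifts. The day 0 library carried the fibroblast programme, with *Col1a1* at 524 FPKM, *Sparc* at 1157 and *Thy1* at 73.5, although the matrix genes *Dcn* and *Lum* stood at only 1.12 and 0.485. Of the 10 macrophage markers none reached 5 FPKM on any day. Of 9 skeletal muscle genes, 2 were at or above 5 FPKM at day 0, and the 9 summed to 42.6 FPKM. The muscle regulator *Myod1* was nevertheless listed at 0 throughout. *Plvap*, an endothelial gene, stood at 47.3 FPKM at day 0.

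The virus-borne factors were read first. *Jdp2*, which encodes a partner and repressor of AP-1, stood at 375, 947, 740, 309 and 234 FPKM at days 0, 1, 3, 5 and 7. *Sall4*, a zinc finger factor that binds the NuRD complex, was at 650, 712, 662, 334 and 280 FPKM. *Esrrb*, an orphan nuclear receptor of the naive network, was at 240, 480, 406, 192 and 171 FPKM. These 3 factors were thus high before the medium change, highest at day 1 and lower at day 7 than at day 0. *Glis1* was at or under 0.45 FPKM in all 5 libraries and was at 0 at day 7, so that delivery of this factor is not seen in these values. Viral and endogenous transcripts are not separated in FPKM, and *Esrrb* and *Sall4* were kept out of the pluripotency lists.

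Many genes had moved by day 1. At that day 1188 genes had risen and 902 had fallen. The numbers against day 0 then grew to 1545 higher and 1104 lower at day 3, 1923 and 1143 at day 5, and 1970 and 1177 at day 7. Against the sampled day before, 661 rose and 485 fell at day 3, 784 and 639 at day 5, and 432 and 403 at day 7. Of the 902 genes lower at day 1, 510 were also lower at day 7, and of the 1188 higher, 605 were also higher. The first day thus held more changes than any later interval, although each later interval covers 2 days. After scaling each library to the median ratio to day 0, higher genes numbered 1323, 1479 and 1735 on days 3, 5 and 7, so that their growth after day 5 differed from that of the unscaled values. Lower genes were then 1281, 1383 and 1319, and the share of higher genes at that day went from 62.7% to 51.7%.

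**Figure D1:**
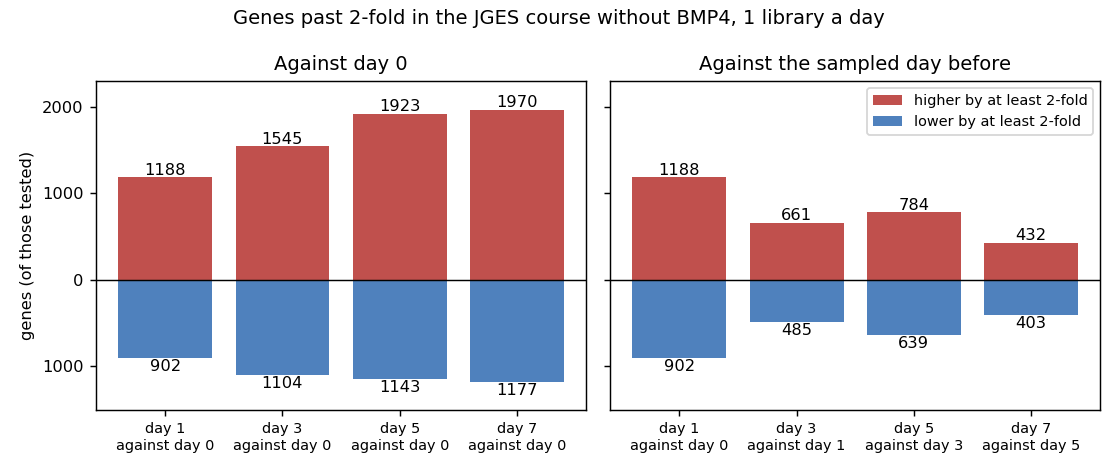
Genes higher (red, upward) and lower (blue, downward) by at least 2-fold on log2(FPKM + 1), out of 11126 genes, against day 0 (left) and against the sampled day before (right), with 1 library a day. The first interval holds 1188 rises and 902 falls, the last 432 and 403.

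Fibroblast genes fell from day 1 on, and at that day the contractile ones had the lowest median of the 4 lists. The 4 fibroblast lists hold 60 genes, and 51 of them passed the 5 FPKM filter. At day 1, 45 of the 60 had fallen and none had risen, where 8.11% of all compared genes fell, and the median difference was -1.75. At day 3, 48 had fallen (9.92% of all compared genes), then 49 by day 5 (10.3%) and 47 by day 7 (10.6%). The medians were -3.33, -3.47 and -2.88 at these 3 days.

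The contractile genes, whose products form and regulate actin bundles, fell at day 1 in 12 of 12 cases with a median of -3.72. Of all compared genes 8.11% fell at that day. *Acta2*, smooth muscle actin (chr19:34240336-34255585), was at 983 FPKM at day 0 and at 23.8, 5.37, 3.22 and 7.66 on the later days. *Tagln*, the actin-binding transgelin, went from 1228 to 58.8, 13.5, 8.34 and 21.6 FPKM. The calponin gene *Cnn1* went from 158 to 1.24, 0.987, 0.749 and 0.544. These 3 genes had lost most of their level within 1 day. *Cyr61* and *Ctgf*, matricellular genes commonly used as readouts of YAP activity, stood at 739 and 191 FPKM at day 0 and at 53.8 and 12.8 at day 1. *Lox*, the enzyme that crosslinks collagen and elastin, and *Thbs1*, thrombospondin, belong to the matrix list and fell about as far at day 1, *Lox* with 90.8 FPKM at day 0 and 3.09 at day 1 and *Thbs1* with 437 and 14.2.

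Matrix genes fell at day 1 as well, in 17 of 20 cases against 8.11% of all compared genes, but by less, and went on falling. Their median difference from day 0 was -1.84, -3.41, -3.99 and -3.75 on days 1, 3, 5 and 7. Collagen I gene *Col1a1* stood at 524, 72.7, 19.4, 12.1 and 20.2 FPKM over the 5 days. *Bgn*, the proteoglycan biglycan and the highest matrix gene at day 0, was at 2252, 827, 192, 73.2 and 158 FPKM. Between days 1 and 3, 12 of the 20 matrix genes fell again, where 4.36% of all compared genes did so. Both collagen VI genes of the list made their largest step in this interval, *Col6a1* with 132, 51.8, 4.69, 3.72 and 8.05 FPKM. Periostin, *Postn*, did not pass 2-fold at day 1 (56.7 FPKM at day 0, 52 at day 1) and stood at 11.5 at day 3. *Dcn* and *Lum* remained low and within 2-fold.

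Surface genes and transcription factors were lost in part. Of 12 surface and cytoskeleton genes, 7 had fallen at day 1, against 8.11% of all compared genes. The count was 8 at day 3, against 9.92%, 9 at day 5, against 10.3%, and 6 at day 7, against 10.6%. *Thy1* was at 73.5, 31.5, 5.98, 1.81 and 6.81 FPKM, whereas *Pdgfra*, the PDGF receptor alpha, was at 30.3, 41.3, 21, 13.6 and 19 and was within 2-fold at day 7. Vimentin, *Vim*, fell from 695 to 237 FPKM at day 1 and then stood between 229 and 257. Of 16 mesenchymal transcription factors, 9 had fallen at day 1 and 11 by day 7, against the same shares, and of the 11 that passed the filter 7 and 8 had. *Prrx2* (63, 6.62, 1.88, 3.21 and 1.81 FPKM), *Osr1* (54.8, 12.6, 3.95, 2.5 and 1.52) and *Foxd1* (20.5, 1.45, 0.281, 1.02 and 1.55) were early losses. *Twist1*, a regulator of mesenchymal identity, stood at 42, 35.1, 21.4, 28.4 and 29.7 FPKM, and *Snai1*, a repressor of E-cadherin, at 53, 41.9, 33.7, 30.7 and 34.1. *Zeb1*, another such repressor, stood at 14, 7.77, 6.69, 6.69 and 8.05. None of these 3 genes reached the 2-fold call on any day, although after scaling to the median ratio *Twist1* passed it at day 3 and *Zeb1* at days 3 and 5.

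The loss of contractile genes was partly recovered at the end. Between days 5 and 7, 11 of the 60 fibroblast genes rose and none fell, where 3.88% of all compared genes rose and 3.62% fell, and 6 of the 11 were contractile. *Cyr61* went from 16.1 to 71 FPKM, *Ctgf* from 12.7 to 45.8 and *Sparc* from 90.4 to 248. *Ankrd1*, another YAP readout, went from 0.357 to 4.53. The median of the contractile genes moved from -4.58 at day 5 to -3.19 at day 7. All 12 nevertheless stayed below their day 0 level by more than 2-fold. In the same interval 3 of 12 surface and cytoskeleton genes, 2 of 20 matrix genes and 0 of 16 mesenchymal transcription factors rose. The median of these factors was -1.52 at day 5 and -1.75 at day 7.

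**Figure D2:**
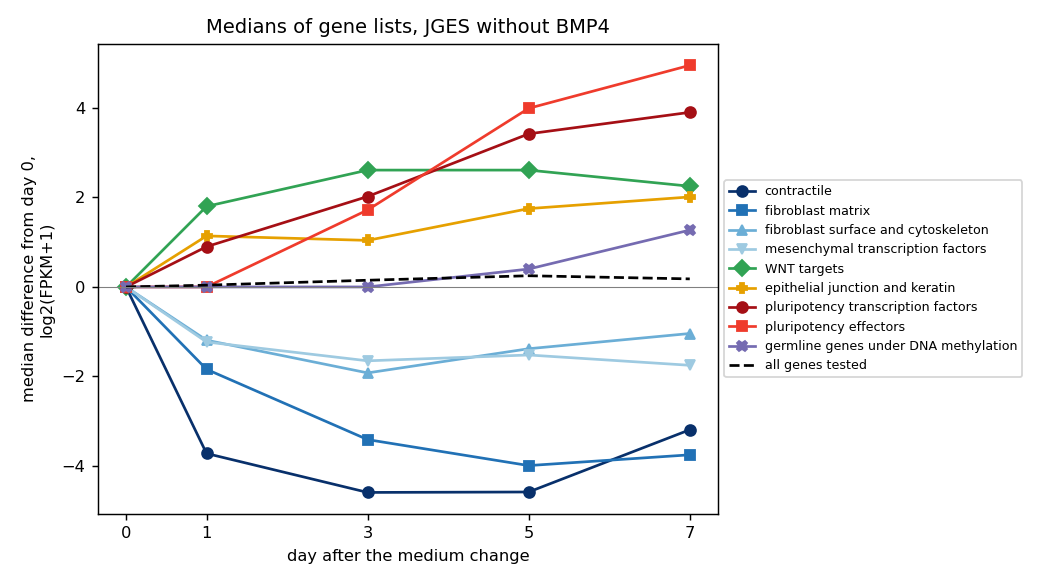
Median difference from day 0 on log2(FPKM + 1) for 9 gene lists and for all compared genes (dashed), by day, 1 library a day. Contractile genes stand at -3.72 at day 1 and matrix genes reach -3.99 at day 5, while the 2 pluripotency lists pass 3 at day 5.

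JDP2 pairs with AP-1 subunits, of which 9 were listed and 6 passed the filter. *Fosl2* was the 1 that had fallen at day 1, at 11.8, 3.66, 3.18, 1.5 and 2.14 FPKM over the 5 days. *Junb* was at 240, 190, 64.2, 32.2 and 29 FPKM and *Fosl1* at 9.45, 8.38, 1.62, 1.66 and 2.91, so that both passed 2-fold at day 3. *Fos* stood at 20.7, 45.9, 11.4, 4.96 and 4.73 FPKM, higher at day 1 and lower from day 5. *Jun* (43.9, 38.2, 26.5, 18.7 and 28.1) and *Jund* (145, 117, 113, 106 and 106) did not pass 2-fold at day 7. In all, 1 of 9 subunits had fallen at day 1, near the 8.11% of all compared genes, 5 by day 5, against 10.3%, and 4 by day 7, against 10.6%.

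Gain of pluripotency genes was spread over the course. Of the 36 genes of both lists, 34 passed the filter. At day 1, 12 had risen, where 10.7% of all compared genes rose, and the median difference was 0.17. On day 3, 26 had risen (13.9% of all compared genes), then 35 by day 5 (17.3%) and all 36 by day 7 (17.7%), with medians of 1.89, 3.54 and 4.24. With a pseudocount of 0.1 the medians on days 1, 3, 5 and 7 were 0.73, 4.17, 5.99 and 6.67.

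The first group was under way at day 1. *Tdh*, threonine dehydrogenase, a metabolic enzyme characteristic of mouse pluripotent cells, was at 0.179 FPKM at day 0 and at 131, 169, 93.6 and 67.2 on the later days, the largest rise by the naming rule at day 1 with a difference of 6.81. *Sox2* (chr3:34649995-34652461) was at 5.85, 59.5, 117, 113 and 165 FPKM. *Sall1*, a relative of *Sall4*, was at 2.26, 11.2, 14.2, 15.9 and 13, and *Tbx3* at 5.24, 15.9, 15, 14.7 and 23.9. *Tdh* was thus highest at day 3, while *Sox2* had crossed the midpoint of its day 0 and day 7 values on the log scale within the first day.

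*Pou5f1* (chr17:35506032-35510777) and *Nanog* (chr6:122707489-122714633) climbed step by step. *Pou5f1* was at 0.931, 9, 50.1, 170 and 230 FPKM, and *Nanog* was listed at 0 at day 0 and stood at 2.22, 13.1, 40.8 and 60.5. *Utf1*, a chromatin-bound target of OCT4 and SOX2, was listed at 0 and then at 1.12, 9.54, 44.2 and 93.9. Between days 1 and 3, 19 of the 36 rose and none fell, where 5.94% of all compared genes rose. *L1td1*, an RNA-binding protein of pluripotent cells, went from 0.442 at day 1 to 15.2 at day 3. *Klf2*, a naive-state factor, was the exception in direction, with 4.99 FPKM at day 0, 0.179 at day 1 and 12.2, 37.6 and 82.9 on days 3, 5 and 7.

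Between days 3 and 5, 24 of the 36 genes rose and 1 fell, genes already past 2-fold among them, where 7.05% of all compared genes rose and 5.74% fell. The gene that fell was *Klf4*, at 7.72, 5.76, 22.3, 10.1 and 25.4 FPKM. *Dppa5a*, an RNA-binding protein of the early embryo, was listed at 0 at day 0 and then stood at 1.52, 3.77, 236 and 527 FPKM. Its level may include reads shared with close copies in the genome. *Zfp42* (REX1) was at 0, 0, 1.47, 23.1 and 42 FPKM, *Dppa4* at 0, 0, 0.451, 19.5 and 30.8, and *Tcl1* at 0, 0, 0, 8.43 and 22.7. *Dnmt3l*, the cofactor of de novo DNA methylation, came last of the 36 by its midpoint day, at 0, 0, 0.129, 5.42 and 29.1 FPKM.

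**Figure D3:**
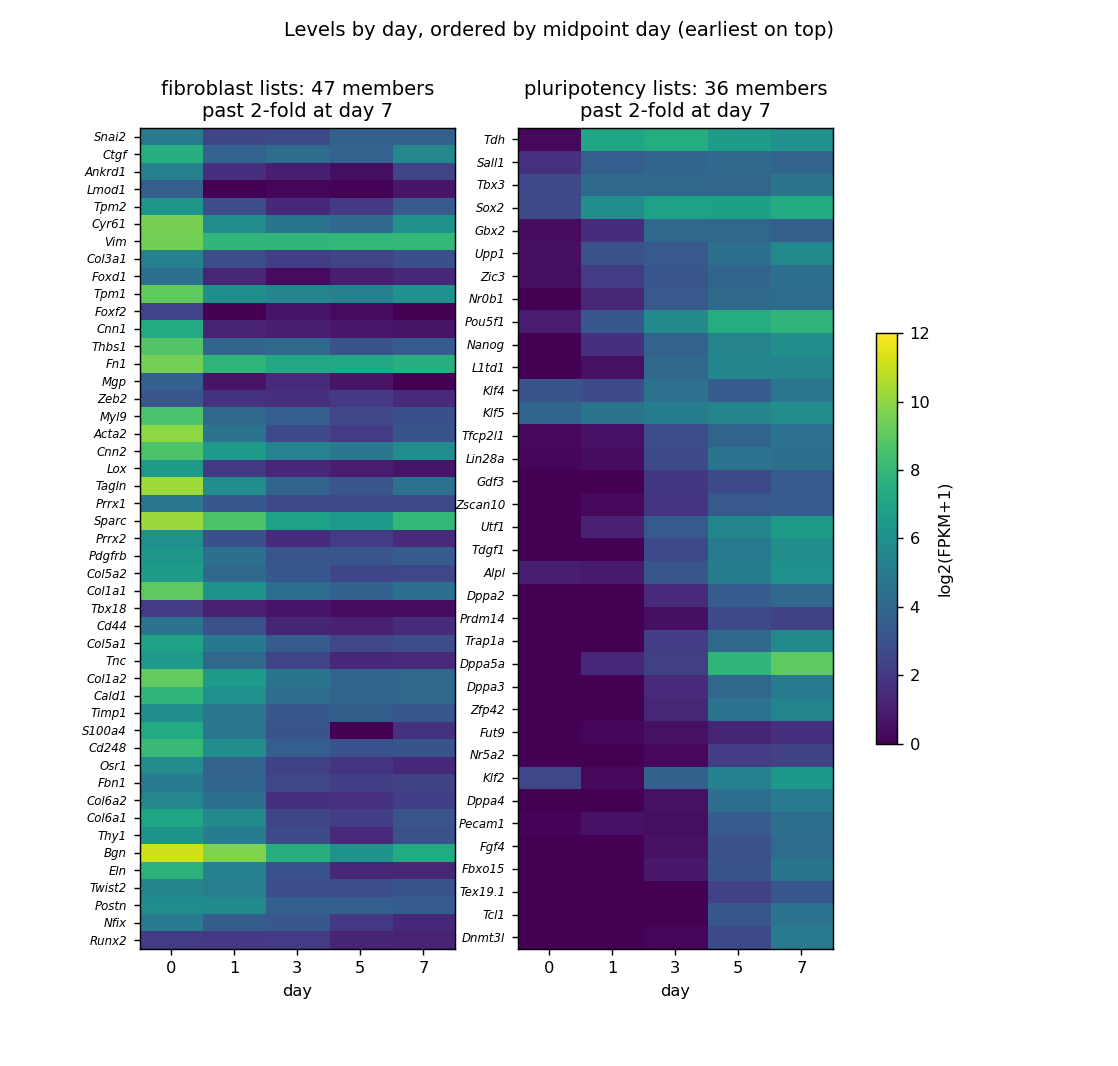
Level of each member, as log2(FPKM + 1) by colour, in the 5 libraries, for the 47 fibroblast and 36 pluripotency genes past 2-fold at day 7, ordered by midpoint day with the earliest on top. Most fibroblast genes darken between days 0 and 1, while pluripotency genes brighten in a staircase from *Tdh* at the top to *Dnmt3l* at the bottom.

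To place all genes on 1 scale, the first day of a lasting change was taken as the first sampled day from which a gene stayed past 2-fold up to day 7. Among all compared genes, 1177 had a lasting fall. It began on day 1 for 443 of them (37.6%), and on days 3, 5 and 7 for 198, 224 and 312. Of 1970 lasting rises, 503 (25.5%) began on day 1, and 351, 572 and 544 on days 3, 5 and 7. Of the 47 lasting falls in the fibroblast lists, 44 began at day 1 (3.98% of all compared genes were lasting falls from day 1), 2 on day 3 (1.78%), 0 on day 5 (2.01%) and 1 on day 7 (2.8%). Of the 36 lasting rises in the pluripotency lists, 12 began on day 1 (4.52% of all compared genes), 13 on day 3 (3.15%), 10 on day 5 (5.14%) and 1 on day 7 (4.89%). These numbers leave out the 13 of 60 fibroblast genes that had no lasting fall by day 7.

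The day at which each gene crossed the midpoint between its day 0 and day 7 values, by straight lines between sampled days, gave the same order. The median was day 0.73 for the 47 fibroblast falls and day 3.07 for the 36 pluripotency rises on the log2 scale, and day 0.57 and day 4.41 on the FPKM scale. For all lasting falls and rises the medians were day 1.02 and day 2.35 on the log2 scale. Within the fibroblast lists the contractile genes had the earliest median, day 0.52 against day 1.0 for matrix genes on the log2 scale and day 0.5 against day 0.6 on the FPKM scale, although nearly all first falls of both were on day 1. Within the pluripotency lists the transcription factors stood at day 2.31 and the effectors at day 3.76 on the log2 scale. On the FPKM scale they stood at day 3.8 and day 4.97. Days under 1 lie inside the first interval and rest on the straight line alone.

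**Figure D4:**
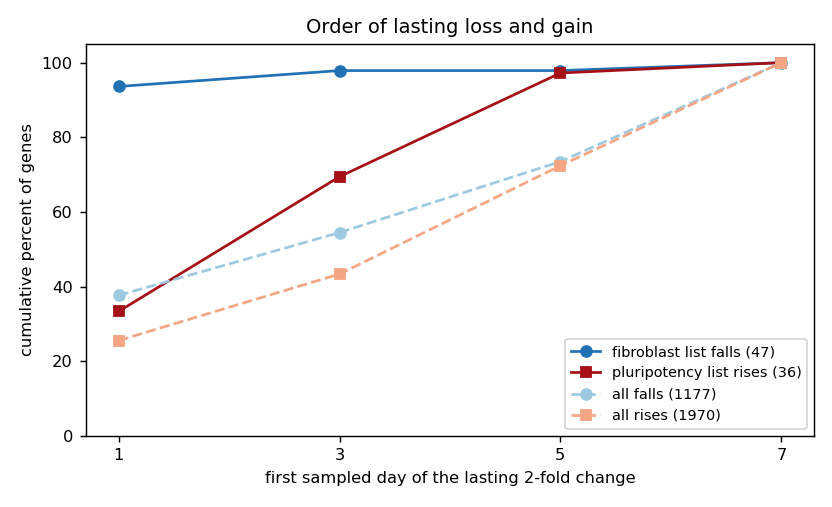
Cumulative percent of genes by the first sampled day of a lasting 2-fold change, for the 47 fibroblast falls, the 36 pluripotency rises and all 1177 falls and 1970 rises, 1 library a day. Of the fibroblast falls 44 are in place at day 1, against 12 of the pluripotency rises.

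Promoters were read for the binding sequences of factors named above. The windows run from 250 bases before to 50 after the RefSeq transcript start, on build GRCm38.p6, and were available for 8032 of the 11126 compared genes. Each motif was searched on both strands, as TGANTCA for AP-1, TCAAGGTCA for ESRRB and ATTTGCAT for the octamer bound by OCT4. TGANTCA was present in 38 of 321 genes with a lasting fall from day 1 (11.8%), 9 of 127 from day 3 (7.09%), 8 of 148 from day 5 (5.41%) and 11 of 185 from day 7 (5.95%). It was present in 425 of the 8032 compared genes (5.29%). Of all 27025 genes with a promoter 8.97% held it, and of all 32851 promoters 7.81%, as a gene can have several. Rises from day 1 held it in 6.29% of 318 genes. ATTTGCAT was in 2.52%, 2.08%, 2.97% and 1.2% of the rises from days 1, 3, 5 and 7. It was in 1.53% of compared genes, 1.97% of all genes with a promoter and 1.74% of all promoters. TCAAGGTCA was in at most 2 genes of any class, against 0.466% of all genes with a promoter and 0.423% of all promoters. A match is a description of the sequence and not a bound site.

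The following windows show both motifs in list members that fell and in list members that rose, namely the 4 fibroblast genes with TGANTCA, 1 fibroblast gene with ATTTGCAT, and 1 pluripotency gene with each. *Cald1* encodes the actin regulator caldesmon, *Col6a1* a collagen VI chain, *Nfix* a nuclear factor I protein, *Zeb2* a repressor of E-cadherin, *Tnc* the matrix protein tenascin C, *Upp1* uridine phosphorylase, and *Zfp42* the naive marker REX1. Each is written 5′ to 3′ on the strand of the gene with the match in capitals. The windows lie as follows, *Cald1* at chr6:34709194-34709493 (plus strand), *Col6a1* at chr10:76725995-76726294 (minus strand), *Nfix* at chr8:84780033-84780332 (minus strand), *Zeb2* at chr2:45110228-45110527 (minus strand), *Tnc* at chr4:64046966-64047265 (minus strand), *Upp1* at chr11:9117758-9118057 (plus strand) and *Zfp42* at chr8:43306960-43307259 (minus strand). Where a gene has several windows the first listed that holds a match is shown. The windows of *Cald1*, *Nfix* and *Zeb2* lie inside their genes, at transcript starts other than the outermost. The match of *Tnc* is on the opposite strand, as ATGCAAAT.
Cald1: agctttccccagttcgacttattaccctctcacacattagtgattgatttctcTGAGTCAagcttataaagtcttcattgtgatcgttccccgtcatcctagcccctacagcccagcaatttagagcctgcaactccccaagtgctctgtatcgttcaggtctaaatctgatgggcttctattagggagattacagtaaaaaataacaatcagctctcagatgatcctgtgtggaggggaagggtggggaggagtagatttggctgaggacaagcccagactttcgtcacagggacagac
Col6a1: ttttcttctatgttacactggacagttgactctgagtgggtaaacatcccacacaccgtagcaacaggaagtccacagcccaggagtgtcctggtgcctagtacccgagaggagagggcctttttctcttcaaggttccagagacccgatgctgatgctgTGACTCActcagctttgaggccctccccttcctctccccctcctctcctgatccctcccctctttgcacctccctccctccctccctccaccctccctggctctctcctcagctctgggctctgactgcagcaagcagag
Nfix: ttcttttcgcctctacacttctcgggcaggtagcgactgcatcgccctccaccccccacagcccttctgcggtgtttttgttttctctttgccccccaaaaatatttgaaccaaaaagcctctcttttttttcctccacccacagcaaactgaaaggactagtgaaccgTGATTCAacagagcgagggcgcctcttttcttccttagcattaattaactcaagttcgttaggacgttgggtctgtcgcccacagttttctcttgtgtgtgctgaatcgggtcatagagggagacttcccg
Zeb2: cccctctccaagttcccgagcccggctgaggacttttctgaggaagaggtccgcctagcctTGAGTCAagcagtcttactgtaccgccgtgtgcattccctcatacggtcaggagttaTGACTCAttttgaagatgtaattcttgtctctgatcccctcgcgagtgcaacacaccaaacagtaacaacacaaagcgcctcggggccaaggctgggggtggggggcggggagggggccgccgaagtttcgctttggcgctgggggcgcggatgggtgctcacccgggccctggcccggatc
Tnc: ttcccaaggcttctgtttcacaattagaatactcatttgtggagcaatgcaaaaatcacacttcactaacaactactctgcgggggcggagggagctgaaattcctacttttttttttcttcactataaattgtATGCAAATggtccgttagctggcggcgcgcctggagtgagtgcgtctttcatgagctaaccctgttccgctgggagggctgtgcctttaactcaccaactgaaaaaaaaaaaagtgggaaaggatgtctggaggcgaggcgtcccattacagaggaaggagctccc
Upp1: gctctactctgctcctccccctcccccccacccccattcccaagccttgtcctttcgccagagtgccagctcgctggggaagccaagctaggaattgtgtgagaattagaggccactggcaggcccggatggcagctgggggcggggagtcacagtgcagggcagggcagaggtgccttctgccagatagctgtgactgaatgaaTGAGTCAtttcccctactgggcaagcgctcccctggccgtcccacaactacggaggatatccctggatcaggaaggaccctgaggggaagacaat
Zfp42: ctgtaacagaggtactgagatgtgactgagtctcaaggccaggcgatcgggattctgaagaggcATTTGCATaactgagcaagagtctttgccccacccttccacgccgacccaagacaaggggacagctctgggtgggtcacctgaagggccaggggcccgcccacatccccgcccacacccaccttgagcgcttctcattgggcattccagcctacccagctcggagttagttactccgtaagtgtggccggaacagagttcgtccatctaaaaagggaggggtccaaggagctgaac

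Of these genes, *Cald1* was at 229, 63.5, 18.8, 13.4 and 15.6 FPKM and *Nfix* at 31.2, 10.5, 8.47, 3.13 and 1.57, both below day 0 from day 1 on, as was *Col6a1*. *Zeb2* was at 8.41, 2.38, 2.18, 2.97 and 1.76 FPKM and *Tnc* at 88.8, 14.7, 4.59, 1.49 and 1.71. *Upp1* rose, at 0.416, 6.85, 9.21, 20.9 and 49.4. Among list members with a window, TGANTCA was in 4 of 38 fibroblast and 2 of 23 pluripotency genes, and ATTTGCAT in 2 of 38 fibroblast genes (*Col3a1* and *Tnc*) and in 1 of 23 pluripotency genes (*Zfp42*). *Upp1* and *Tex19.1* were the 2 pluripotency genes with TGANTCA. Both motifs were thus found in members that fell and in members that rose.

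Beyond the lists, the largest changes by the naming rule showed further stages. *Sepp1*, the selenium carrier selenoprotein P, was at 3.49, 73.3, 644, 514 and 540 FPKM, and *Stra6*, the retinol transporter, at 0.16, 28.7, 61.6, 58.3 and 45.1. *Pdk1*, a kinase that holds back pyruvate dehydrogenase, was at 2.4, 92.6, 163, 100 and 53.8. These 3 genes rose early and kept a raised level. *Mylpf*, a myosin light chain of fast muscle, was at 0.344, 0.999, 6.38, 54.9 and 54.7 FPKM and rose from day 3. *Slc2a3*, the glucose transporter GLUT3, rose from day 3 and stood at 3.69, 7.49, 28.7, 125 and 259. Among falls after day 1, *Lrrc32* was at 217, 288, 135, 27.8 and 19 FPKM, *Angpt4* at 87.1, 82.8, 22.1, 3.91 and 2.74, and *Fbln2*, a fibulin of the matrix, at 276, 150, 22.1, 14 and 12.

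Some genes rose and returned. In all, 1122 of the 11126 genes (10.1%) were higher on an earlier day but not at day 7, and 738 (6.63%) were lower on an earlier day only. *Nefh*, a neurofilament subunit, was at 1.93, 43, 69.1, 10.6 and 2.19 FPKM, and *Gjb2*, a gap junction protein, at 0.279, 12.7, 21.6, 4.58 and 1.11. Other genes peaked early and stayed past 2-fold at day 7 at a much lower level. *Ngfr*, the low-affinity nerve growth factor receptor, was at 12.7, 363, 169, 41.9 and 30.1 FPKM, and *Hpca*, the neuronal calcium sensor hippocalcin, at 0.167, 10.2, 68.6, 24.2 and 4.54. *Pla2g5*, a secreted phospholipase, was at 0.235, 33.6, 4.72, 2.87 and 1.74. Of the 10 neural markers 3 had fallen and none had risen at day 1, against 8.11% and 10.7% of all compared genes, while 4 were higher and none lower by day 7, against 17.7% and 10.6%, although only 3 of the 10 passed the filter, of which 2 were higher. Of these 4, *Stmn2*, a microtubule regulator of neurons, stood at 2.82 FPKM at day 0 and 23.6 at day 7. *Wnt8a* and *Msgn1*, genes of early mesoderm, were listed at 0 at day 0 and were highest at day 5, with 22 and 12.8 FPKM, against 1.25 and 1.34 at day 7.

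Epithelial genes rose from day 1 on. Of 18 genes, 12 of which passed the 5 FPKM filter, 11, 9, 14 and 16 had risen on days 1, 3, 5 and 7, against 10.7%, 13.9%, 17.3% and 17.7% of all compared genes, and none had fallen. Among the 12 that passed the filter, 10, 8, 9 and 11 had risen on these days. E-cadherin, *Cdh1*, was at 10.8, 63, 56.1, 38.6 and 43.9 FPKM and was highest at day 1. *Cldn4*, a tight junction claudin, was at 0.741, 40.3, 11.3, 14.9 and 28.2. *Epcam*, an adhesion protein of epithelia and embryonic stem cells, was listed at 0 at day 0 and then stood at 2.36, 5.53, 25.2 and 40.1. *Cldn7*, *Esrp1* and *Rab25* were at 0 up to day 3 and at 2.17, 3.33 and 2.38 FPKM at day 5.

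Targets of WNT signalling, which CHIR99021 in the medium is known to activate, rose early. At day 1, 8 of 10 had risen, against 10.7% of all compared genes, and by day 7 all 10, against 17.7%, with medians of 1.8, 2.61, 2.61 and 2.25 over the 4 days. *Axin2*, a feedback inhibitor of the pathway, was at 2.13, 29.4, 24.8, 19.2 and 17.1 FPKM, and *Sp5* at 0.16, 18.7, 45.2, 46.7 and 44.5. *Apcdd1* was at 2.64, 50.4, 45.3, 35.1 and 31.7. *Lgr5* and *Rnf43* passed 2-fold for good only from day 5. Of 6 BMP targets, 3 had fallen and 1 had risen at day 1, against 8.11% and 10.7% of all compared genes, with *Smad6* at 38.3 and 9.96 FPKM and *Id3* at 168 and 30.7 on days 0 and 1.

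Glycolytic genes moved together at 1 interval. Between days 3 and 5, 10 of 13 rose and none fell, against 7.05% and 5.74% of all compared genes, with a median step of 1.51, whereas of the 13 only *Gpi1* was past 2-fold above day 0 at day 1 and only *Hk2* at day 3. *Pfkl*, phosphofructokinase, was at 19.2, 11.9, 15.9, 77.7 and 80.2 FPKM and *Ldha*, lactate dehydrogenase, at 290, 280, 269, 720 and 551. The lactate exporter *Slc16a3* (5.65, 4.74, 3.68, 75.3 and 80.6) and *Bnip3*, a mitophagy receptor (4.02, 0.74, 0.591, 53.6 and 72.9), were among the largest rises of the same interval. Replication genes *Mcm2* (27.4, 38.4, 51.6, 75.2 and 71.2 FPKM) and *Mcm6* (22.1, 22.4, 21.5, 46.6 and 45.9) were higher from day 5, although only 4 of the 16 cell division genes were past 2-fold at day 7, against 17.7% of all compared genes. *Cdkn1a*, the inhibitor p21, was highest at day 1, with 236, 485, 397, 162 and 160 FPKM. *Cdkn1c* was likewise highest at day 1, at 921 FPKM against 382 at day 0.

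Germline genes that are silenced by promoter DNA methylation in somatic cells rose late. Of 12, 1 had risen at day 1, against 10.7% of all compared genes, and 8 by day 7, against 17.7%. Only 2 of the 12 passed the 5 FPKM filter, and 1 of these, *Dazl*, was higher at day 7. *Dazl*, an RNA-binding protein of germ cells, was at 0, 0, 0, 1.3 and 20.6 FPKM and *Mael*, of the piRNA pathway, at 0, 0, 0, 0.611 and 4.68. *Sycp3*, of the synaptonemal complex, was the exception, at 0.599, 6.08, 8.01, 2.81 and 2.04. Genes of the 2-cell stage passed 2-fold at day 7 only, with 5 of 9 higher, against 17.7% of all compared genes, and 3 of these 5 passed the filter. *Zscan4f* was at 3.49, 4.62, 1.7, 3.1 and 44 FPKM and *Zscan4c* at 1.77, 1.57, 1.06, 0.692 and 20.8, values that are uncertain for single genes because the *Zscan4* copies are nearly identical. *Rps28*, whose level went from 42.1 to 772 FPKM between days 5 and 7, is a ribosomal protein gene with processed copies in the genome and is uncertain for the same reason.

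Of the lists for other lineages some rose and others did not. At day 7, 3 of 9 trophoblast genes were higher and 2 lower, 1 of 10 keratinocyte genes was higher and 2 lower, 2 of 9 skeletal muscle genes were lower and none higher, and none of the 10 macrophage genes was past 2-fold, against 17.7% higher and 10.6% lower of all compared genes. Only 4 trophoblast genes passed the 5 FPKM filter, of which 3 were higher and 1 lower. Only 3 keratinocyte and 3 muscle genes passed it, with 2 lower in each list. No macrophage gene passed it, so that few calls were possible there. *Pecam1*, counted here with the pluripotency effectors, is also expressed by endothelial cells and stood at 18.9 FPKM at day 7. Of 14 primitive endoderm genes, 9 were higher and 2 lower at day 7, against 17.7% and 10.6% of all compared genes. Their summed level went from 54 FPKM at day 0 to 65.7, 72.6, 87.8 and 131. At day 1, 1 had risen and 2 had fallen, against 10.7% and 8.11% of all compared genes, with a median of -0.23. *Amn* was the 1 that rose, from 2.17 to 40.7 FPKM. *Lama1*, a laminin of the basement membrane, was at 0.556, 1.48, 3.83, 12.9 and 30.1 FPKM and *Gata4* at 2.17, 0.963, 0.559, 3.23 and 10.3. Of 10 endothelial genes, 7 were higher at day 7, against 17.7% of all compared genes, and of the 6 that passed the filter 5 were higher. The sum of the 10 genes was 57.7, 158, 129, 120 and 116 FPKM over the 5 days. At day 1, 3 had risen, against 10.7% of all compared genes, with a median of 0.44. On days 3, 5 and 7 the median was 0.65, 1.53 and 1.63, with 4, 7 and 7 genes higher, against 13.9%, 17.3% and 17.7%. *Plvap* made up 89.9 FPKM of the sum at day 1 and was within 2-fold of day 0. *Sox18*, an endothelial transcription factor, was highest at day 1, with 5.39, 54.2, 42.3, 21.4 and 18.8. At day 7, 7 of 12 formative and primed epiblast genes were higher and 1 lower, against 17.7% and 10.6% of all compared genes. Only 6 of the 12 passed the filter, and 5 of these were higher and 1 lower. The gene that fell was *Pou3f1*, from 13.5 FPKM at day 0 to 1.01 at day 7, and *Zic2* and *Lef1* were among those that rose, to 12.1 and 7.95. *Otx2*, listed at 0 at day 0, was also counted as higher with 1.78 at day 7, and *Fgf5* was at or under 1.21 on all days. The part of these lineages in the other results was not tested.

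With BMP4 the loss of contractile genes was alike in number and the gain of pluripotency genes was smaller. Both courses share the day 0 library, and the values are given side by side without a test. The compared genes were chosen by the 5 libraries without BMP4 alone. Genes raised only with BMP4 can thus be missing from the shares of all compared genes. All 12 contractile genes had fallen at day 1 with BMP4, against 7.75% of all compared genes, where *Acta2* stood at 22.8 FPKM against 23.8 without it. At day 7, 36 of the 36 pluripotency genes had risen without BMP4 and 23 with it, against 17.7% and 12.5% of all compared genes, with medians of 4.24 and 1.16. *Pou5f1* was at 230 FPKM without and 6.08 with BMP4 at day 7, *Nanog* at 60.5 and 1.82, and *Sox2* at 165 and 14.5. *Tdh* rose in both courses at day 1, to 131 and 39.2 FPKM. *Col1a1* stood at 20.2 FPKM without and 361 with BMP4 at day 7, and the matrix list at medians of -3.75 and -1.61. At day 7, 13 of the 20 matrix genes had fallen with BMP4 and 18 without it, where 9.01% and 10.6% of all compared genes fell.

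The day 7 single cells without BMP4 showed which cells carried these genes. The sample held 8685 cells under 4 names given by the authors, namely 1825 pluripotent cells, 6211 intermediate cells, 507 endothelial cells and 142 cells labelled ParE. Pluripotent cells made up 21% of the cells and 24.1% of the unique molecular identifiers (UMIs), with a median of 15444 UMIs a cell against 11892 in intermediate cells. As the names were assigned on the same cells, and the pluripotency genes may have served for them, the shares below are a description. They come from 1 sample, which shares 2 of its 8685 cell barcodes with the cells that received BMP4, and their Poisson intervals cover counting error only.

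Across the 9705 compared genes with at least 20 UMIs, a median of 22.5% of a gene's UMIs came from pluripotent cells. The median was 18% for genes with a lasting rise from day 1, 26.3% from day 3, 32.6% from day 5 and 26.9% from day 7. For lasting falls it was 9.26% from day 1, 11.5% from day 3, 11.5% from day 5 and 16.7% from day 7. Rises from day 1 thus lay below the value of all compared genes and those from day 5 above it. Intermediate cells held a median of 69.7% of the UMIs for rises from day 1 and 68.1% for all compared genes. For the 36 pluripotency genes the median was 82%, and for the 12 germline genes it was 85.7%.

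**Figure D5:**
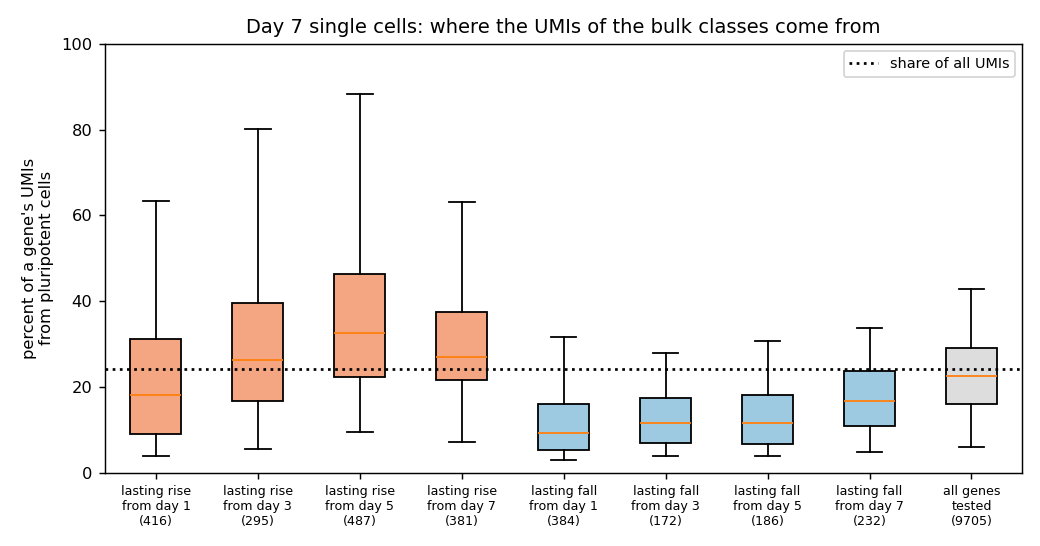
Percent of each gene's UMIs that came from pluripotent cells in the day 7 scRNA-seq sample, by the class of the gene in the bulk course, with the number of genes in brackets. Boxes span the quartiles with the median as a line, whiskers the 5th to 95th percentile, and the dotted line is the 24.1% of all UMIs that came from pluripotent cells. Medians go from 18% for rises from day 1 to 32.6% for rises from day 5.

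Genes that rose from day 1 differed in where they were found. *Pou5f1* was at 899 CPM, counts scaled to an equal total in each cell type (95% exact Poisson interval 889 to 910), in pluripotent and 54.4 CPM (52.8 to 56) in intermediate cells, and 83.5% of its UMIs came from pluripotent cells. *Tdh* was alike, with 81.3% from pluripotent and 17.2% from intermediate cells. *Sox2* was at 217 CPM (211 to 222) in pluripotent and 77.1 CPM (75.3 to 79) in intermediate cells, so that 48.9% of its UMIs came from intermediate cells. Endothelial cells, which are not defined by these genes and had a median of 15083 UMIs, gave 44.7 CPM for *Pou5f1*, 11 for *Tdh* and 28.7 for *Sox2*. The level of *Pou5f1* in intermediate cells was thus not far above that in endothelial cells, 54.4 against 44.7 CPM. *Dazl* stood at 1.78 CPM in endothelial cells. The part of free RNA in these values was not tested. The WNT target *Sp5*, likewise a rise from day 1, was at 17.9 CPM (16.4 to 19.5) in pluripotent and 56 CPM (54.4 to 57.7) in intermediate cells.

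Pluripotency and germline genes had high shares in pluripotent cells and fibroblast genes low ones. *Dazl* was at 40.2 CPM (38 to 42.5) in pluripotent and 1.64 CPM (1.37 to 1.93) in intermediate cells, and 88.1% of *Dppa5a* and 91.8% of *Zfp42* UMIs came from pluripotent cells. *Acta2* was at 2.09 CPM (1.6 to 2.68) in pluripotent and 41.8 CPM (40.4 to 43.2) in intermediate cells. Over the 58 fibroblast genes with at least 20 UMIs, a median of 5.4% of the UMIs came from pluripotent and 89.8% from intermediate cells. *Twist1*, within 2-fold of day 0 in bulk at day 7, had 92.9% of its UMIs in intermediate cells. *Gata4* had 80.1% in ParE cells and *Kdr*, the VEGF receptor, 77.7% in endothelial cells. *Glis1* had 65 UMIs over all 8685 cells.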

How the data were processed

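Per the labels and the study's methods, the authors trimmed reads with Trim Galore 0.6.4, aligned them to mm10 with HISAT2 2.2.1 and deposited a gene table in FPKM made with StringTie 2.2.1. The depth of each library and the annotation are not given in the sources used here. The study compared libraries with GFOLD, which needs reads. Here log2(FPKM + 1) was compared between days over genes with at least 5 FPKM in any of the 5 libraries, and a difference of 1 in size, 2-fold, was called a rise or a fall. With 1 library a day no test was run. For the single cells the authors deposited UMI counts with cell type names, and these counts were summed by type. No doublet caller was run. Of the other columns of this count table, 10749 cells named MEF or ESC, which come from other work, and 11335 cells with BMP4 were not used. Another FPKM table had 2 columns that could not be mapped to 1 sample and was not used. Genes named in the text are the delivered factors, list members, the 5 largest rises and falls of each comparison and of each first day, and the 5 genes highest on each of days 1, 3 and 5 over both days 0 and 7, with at least 10 FPKM in either library compared and neither of them at 0. Gene lists and members were chosen with earlier results of these data known. Promoters and gene coordinates are from RefSeq on GRCm38.p6, where 392 of 397 genes named or listed were found. Python 3.11.15, numpy 2.4.6, pandas 2.3.3 and scipy 1.17.1 were used.

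Alternatives tried were a pseudocount of 0.1, scaling of each library to the median ratio to day 0, a minimum of 1 FPKM or none, 3-fold, the day at the midpoint of the change, members with at least 5 FPKM, and cells without the deepest 6% of each type.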

Additional observations from a re-analysis of the deposited data

Results flagged for a closer look

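In 5 list members the courses with and without BMP4 stood on opposite sides of the shared day 0 library at day 7, each by at least 2-fold, out of 342 members looked at. This difference was not tested, since each course has 1 library at that day. *Postn* was at -2.38 without and 2.48 with BMP4 on the log2(FPKM + 1) scale, that is 10.1 and 321 FPKM against 56.7 at day 0. The endocytic adaptor *Dab2* was at -1.28 and 1.49, and the homeobox gene *Pitx1* at -1.25 and 2.04. *Zscan4c* was at 2.97 and -1.26 and *Zscan4f* at 3.32 and -1.70, and both share reads with near-identical copies. Their levels at day 0, 1.77 and 3.49 FPKM, and with BMP4, 0.154 and 0.384, all lie under 5 FPKM. The falls of these 2 genes with BMP4 therefore cannot be weighed. Over all 11126 compared genes, 45 were higher without and lower with BMP4, and 21 the reverse. The 5 FPKM filter used the 5 libraries without BMP4 alone. Genes raised only with BMP4 could thus be left out, so that these counts cannot be weighed against each other.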

How the results depend on the processing

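No paired analysis was possible because each day has 1 library and no replicate. No call turned its direction under any setting. At 3-fold, genes higher and lower against day 0 were 610 and 414 at day 1, 807 and 602 at day 3, 945 and 658 at day 5, and 1046 and 632 at day 7. Against the day before they were 245 and 197 at day 3, 287 and 221 at day 5, and 184 and 139 at day 7. Lasting falls at 3-fold were 217 from day 1, 128 from day 5 and 140 from day 7, and lasting rises were 227, 165, 325 and 329 from days 1, 3, 5 and 7. With a minimum of 1 FPKM, and equally with none, genes higher against day 0 were 2352, 2992 and 3326 at days 3, 5 and 7, genes higher and lower against the day before were 1165 and 737, 1364 and 1013, and 960 and 760, and lasting rises were 928 from day 5 and 1332 from day 7. By the day at the midpoint of the change, 187 falls and 293 rises belonged to day 7. Alternatives chosen after seeing the data were to leave out the day 3 library, which put 395 falls and 880 rises at day 5, and the day 5 library, which put 481 falls and 1030 rises at day 7, as fewer days remained.

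A pseudocount of 0.1 gave fibroblast medians of -1.90, -3.88 and -3.03 at days 1, 5 and 7, and pluripotency medians of 0.73, 4.17, 5.99 and 6.67 at days 1, 3, 5 and 7. Scaling gave -3.44 for fibroblast genes at day 3 and 3.34 and 4.12 for pluripotency genes at days 5 and 7. Members with at least 5 FPKM gave -2.08, -3.84 and -3.07 for fibroblast genes at days 1, 5 and 7, and 2.07 and 4.40 for pluripotency genes at days 3 and 7. Medians were called moved beyond 0.1. The cause was not tested. The copy of day 7 in another table was not used here, as its column could not be mapped. Depth is unknown, so that changes under about 5 FPKM cannot be weighed.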

Other observations

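Cholesterol synthesis genes were higher at day 5 in 7 of 12 cases, against 17.3% of all compared genes, and at day 7 in 2 of 12, against 17.7%. *Sqle*, squalene epoxidase, was at 30.1, 63.4, 62.9, 88.7 and 54.5 FPKM at days 0, 1, 3, 5 and 7. Of the secreted inflammatory factors, 4 of 12 had fallen and 2 had risen at day 1, against 8.11% and 10.7% of all compared genes, and 5 of the 12 reached 5 FPKM, with the chemokine *Ccl2* at 147, 36.3, 6.43, 0.781 and 2.36 FPKM. *Il6* was listed at 0 in all 5 libraries.

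Among regulators of DNA methylation, *Tet1*, which oxidises 5-methylcytosine, was at 0.675, 0.816, 2.52, 8.19 and 14.3 FPKM and the de novo methyltransferase *Dnmt3b* at 0.668, 1.51, 11.8, 16.4 and 17.7. None of the 13 NuRD subunits was past 2-fold against day 0 on any day, as was the case for 56.5% of all compared genes. Of 10 targets of FGF and ERK signalling, 4 were higher and 2 lower at day 7, against 17.7% and 10.6% of all compared genes, with *Etv5* at 13.6, 27.3, 52.2, 52.8 and 61 FPKM and *Egr1*, an immediate early gene, at 137, 84.5, 23.2, 13.3 and 8.31.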
